A study of Mus musculus with 20 samples.

Results

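Contacts between genomic regions on different chromosomes were measured by chromosome conformation capture carbon copy (5C) in mouse neural progenitor cells, induced pluripotent stem (iPS) cells and embryonic stem (ES) cells. In 5C, chromatin is crosslinked, cut with HindIII and religated, and a forward primer on one restriction fragment is joined to a reverse primer on another where both fragments were ligated together. Each forward-reverse primer pair whose primers lie in different regions on different chromosomes was taken as a member, which gave 476940 of the 601344 forward-reverse pairs counted. Of the other pairs, 97243 lie within 1 region and 27161 join the Sox2 region with the Nestin region, which are both on chromosome 3 and so are not members. The members fall into 20 region pairs and 2799 pairs of 100 kb windows.

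NPC, the neural progenitor cells, were primary cells from whole brains of 129SvJae x C57BL/6 Sox2-eGFP mice at postnatal day 1, grown as neurospheres and plated 1 day before fixation. The iPS cells were derived from primary Sox2-eGFP NPCs and kept with serum, leukaemia inhibitory factor (LIF) and inactivated embryonic fibroblast feeders. The same iPS cells were also grown serum-free in 2i, which is LIF with the inhibitors CHIR99021 and PD0325901. The ES cells were V6.5, a male 129SvJae x C57BL/6 line, grown in 2i, or with serum, LIF and feeders. Pluripotent cells were moved from feeders to gelatin before fixation, and cells of all groups were fixed in 1% formaldehyde. Each of the 5 groups had 2 5C libraries. The number of animals, iPS clones or separate cultures is not given in the sources used here, so p-values measure only the spread between these libraries.

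Chromosomes in interphase nuclei occupy territories, and 2 loci on different chromosomes meet far less often than neighbours along one chromosome. Contacts across chromosomes have been described as more frequent among gene-rich, active segments, and in mouse ES cells Nanog and other loci bound by pluripotency factors have been described as meeting across chromosomes. A count in a ligation assay can also come from fragments of different nuclei joined at random, which a table of counts does not separate from contacts within a nucleus. The regions were 4 around genes of pluripotency transcription factors, 2 around neural progenitor genes and a gene desert, here in mm9 coordinates. The Oct4 region around Pou5f1, the core pluripotency factor gene, was chr17:34428607-36528892. The Nanog region was chr6:122186812-123334399 and the Sox2 region chr3:34107374-35107373, and Sox2 serves both stem cells and neural progenitors. The Klf4 region, around a reprogramming factor gene, was chr4:54896446-55891772. The Nestin region, around the gene Nes of an intermediate filament of neural progenitors, was chr3:87282064-88377995. The Olig region, around the oligodendrocyte lineage factor genes Olig1 and Olig2, was chr16:90611387-91756617. The gene desert was chr5:133305260-133503397.

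Interchromosomal pairs were most of the pairs counted but held a small share of the counts. They held 14.7% and 10.1% of forward-reverse counts in NPC, 7.57% and 16.3% in iPS cells in 2i, 8.89% and 15.4% in iPS cells in serum, 7.61% and 15.1% in ES cells in 2i, and 16.7% and 18.2% in ES cells in serum. Group means were 12.4% ± 3.27 in NPC, 11.96% ± 6.20 in iPS cells in 2i, 12.1% ± 4.59 in iPS cells, 11.4% ± 5.31 in ES cells in 2i and 17.4% ± 1.02 in ES cells (SD, n = 2 each). Both serum ES libraries lay above the other 8, and in 3 groups the replicates of one group differed about as much as any groups did. The share is given without a test, since 3 libraries stood apart at under 9%, replicate 1 of each of iPS in 2i, iPS and ES in 2i. Total forward-reverse counts were 10479270 to 14858267 in 8 libraries and 26323793 and 25651876 in the serum ES libraries. A single library's share had a 95% Wilson interval of at most 0.0210 percentage points to either side, which treats each count as an independent draw. The counts carry no molecular identifiers, so the interval may be too narrow even for counting error. It does not cover the spread between libraries. Without the 1000 interchromosomal primer pairs of highest mean share, described below, the shares were 10.7% and 7.68% in NPC, 5.69% and 13.0% in iPS cells in 2i, 5.80% and 11.3% in iPS cells, 6.09% and 11.9% in ES cells in 2i, and 11.95% and 12.2% in ES cells, and the serum ES libraries no longer lay above all the others.

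A pair within a region averaged 21.9 to 59.6 times the count of an interchromosomal pair, with the lowest ratios, 24.2 and 21.9, in serum ES cells and ratios of 28.2 and 43.5 in NPC. Of the interchromosomal pairs, 43.1% to 76.2% had at least 1 count in a given library. Over all 10 libraries the median pair held 17 counts, 9588 pairs (2.01%) were never counted and 43592 (9.14%) were counted in every library. By region, the median share of counts that was interchromosomal ran between 11.98% for Oct4 primers and 20.4% for Nanog primers. Primer pairs of the same orientation on different chromosomes, which the forward-reverse design does not amplify, also held counts, 0.0351% to 0.541% of all counts. That background was lowest, 0.0351% to 0.0749%, in 5 libraries that include all 3 of low interchromosomal share, and its part in the interchromosomal counts was not tested.

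**Figure D1:**
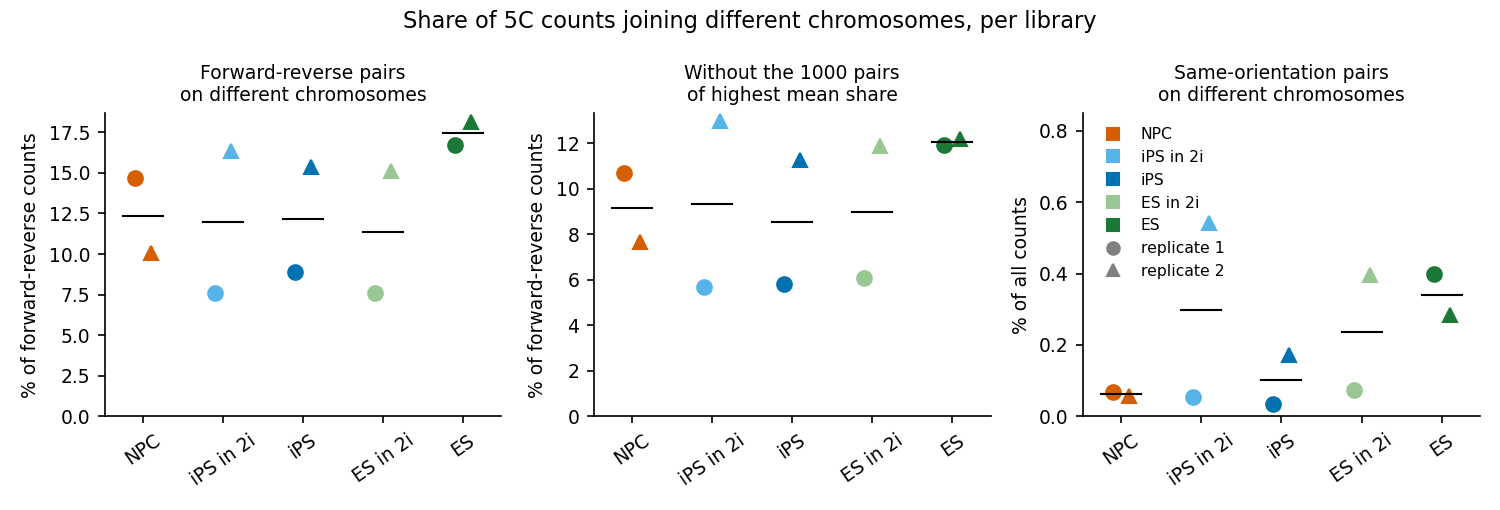
Interchromosomal share of forward-reverse 5C counts (percent) per library, with all pairs on the left and without the 1000 highest in the middle, and the share of all counts held by same-orientation pairs (percent) on the right. Points are libraries and lines are group means. Both serum ES libraries sit at 16.7% and 18.2%, above the other 8 on the left alone, and the libraries of each 2i group sit apart at 7.57% and 16.3% and at 7.61% and 15.1%.

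Matched RNA-seq counts were used to check the labels. Pou5f1 was at 0 CPM (counts scaled to a library total of 1000000) in both NPC libraries, against 1195 and 1138 CPM in serum ES cells. Olig1 stood at 3824 and 4268 CPM in NPC, against 17.5 and 20.4 CPM in serum ES cells. Nes was counted at 3.48 and 3.84 CPM in NPC, against 0.289 and 0 CPM in serum ES cells. The 4 pluripotency markers measured were each at 0 CPM in NPC. They summed to 4787 to 4941 CPM in iPS cells in 2i, 4205 to 4746 in iPS cells, 3153 to 3604 in ES cells in 2i and 4912 to 5362 in ES cells. In iPS cells Pou5f1 was above serum ES cells, at 3472 and 2768 CPM, and the other markers on that list were below. Tdh was at 331 and 376 CPM in iPS cells, against 1323 and 1338 in ES cells. Esrrb, likewise counted low, was at 0 and 0.647 CPM in iPS cells, against 4.57 and 4.29 in ES cells. The 4 neural progenitor markers measured summed to 5573 to 6153 CPM in NPC, 94.2 to 102 in iPS cells in 2i, 259 to 270 in iPS cells, 58.3 to 66.3 in ES cells in 2i and 72.8 to 79.6 in ES cells. Sox1, an early neural transcription factor gene on that list, stood at 240 and 228 CPM in iPS cells, above the 83.4 and 96.0 CPM in NPC. Summed over 6 fibroblast marker genes, RNA was 77.3 to 99.3 CPM in NPC, where Thy1 was the highest at 62.6 and 72.4 CPM, 903 to 943 in iPS cells in 2i, 2444 to 2799 in iPS cells, 447 to 477 in ES cells in 2i and 1239 to 1416 in ES cells, with Acta2 and Tagln the highest in both serum groups. The source of this RNA was not tested. In bulk samples, fewer cells of a type and less RNA per cell cannot be told apart, and the part of feeder cells in the contacts was not tested.

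A few primer pairs held much of the interchromosomal signal. As the mean over libraries of their share of interchromosomal counts, the highest pair held 3.95%, the highest 10 held 12.2%, the highest 100 held 19.8% and the highest 1000, which are 0.210% of all member pairs, held 28.9%. In single libraries the 1000 held 30.6% and 25.7% in NPC, 26.3% and 23.7% in iPS cells in 2i, 37.0% and 30.3% in iPS cells, 21.3% and 24.5% in ES cells in 2i, and 32.5% and 37.5% in ES cells. These pairs were spread over 447 of 768 forward and 454 of 783 reverse primers, and 970 of the 1000 were counted in all 10 libraries. They held 61.1% of the counts between the Nestin and Olig regions, 45.2% between Oct4 and Nestin, 39.8% between Oct4 and Sox2, and 7.92% between Nestin and the gene desert.

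The highest pair joined the fragment chr16:91416344-91418461 of the Olig region, which overlaps Il10rb, a cytokine receptor subunit gene, with the fragment chr3:88310991-88315679 of the Nestin region. In CPM of forward-reverse counts it had 4570 and 2406 in NPC, 2682 and 5304 in iPS cells in 2i, 5735 and 5246 in iPS cells, 2871 and 4543 in ES cells in 2i, and 8265 and 10192 in ES cells. It was above the next pair in every library, differed by just under 2-fold between replicates of NPC and of iPS cells in 2i, and was higher in both serum ES libraries than in the other 8. This pair took 94.4% of the interchromosomal counts of its forward primer and 85.9% of those of its reverse primer. The second pair joined chr17:34532082-34532748 of the Oct4 region with chr3:87351707-87360598 of the Nestin region, and it took 67.9% and 96.8% of its primers' interchromosomal counts. The third, between Klf4 and Nestin, joined chr4:55768819-55773118 with chr3:87576424-87581553 and took 86.2% and 89.4%. The fourth, between Oct4 and Sox2, joined chr17:35039456-35040447 with chr3:34235733-34236154 and took 85.9% and 90.8%. Each of these primers was counted across chromosomes mainly with a single partner. The tenth pair joined the Nestin fragment of the highest pair with chr16:91420847-91422555, close to the Olig fragment of the highest pair, and took 57.8% of its forward primer's interchromosomal counts and 5.67% of its reverse primer's. All of the highest 10 pairs were counted in all 10 libraries, with no fewer than 2130 counts in any, and together they used 19 primers. The eighth joined chr4:55297345-55299299 of the Klf4 region with chr6:122552395-122568711, a Nanog region fragment that overlaps Gdf3, a growth factor gene of pluripotent cells.

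**Figure D2:**
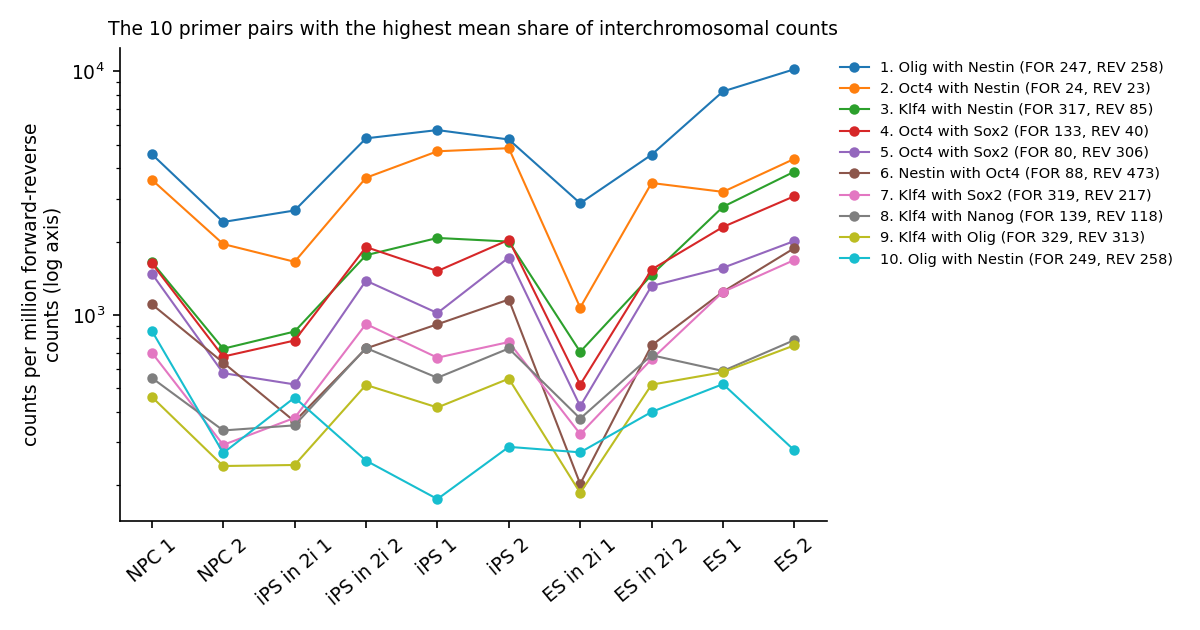
Counts of the highest interchromosomal primer pairs in CPM of forward-reverse counts (log axis) in the 10 libraries, with 1 line for each of the 10 pairs, named by region and primer number (FOR forward, REV reverse). The highest pair, Olig with Nestin, lies between 2406 and 10192 and the others below it in every library.

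The 1000 highest pairs of single libraries were shared across cell types as much as within them. The lists of all 10 libraries had 257 pairs in common and 2604 pairs in any. Replicates of one group shared 568 to 827 of 1000 pairs (median 602) and libraries of different groups shared 402 to 782 (median 616). No group difference is read from these counts, because depth differs between the libraries.

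Region pairs were then compared with the count given by their primers alone. The expected count was the product of a forward and a reverse factor fitted in each library to the primers' interchromosomal totals, so observed over expected averages about 1 within each region by construction. Over the 20 region pairs and 10 libraries observed over expected ran between 0.577 and 1.46, with 8 pairs above 1 and 7 below 1 in every library. Nestin with Olig, both around neural genes, was the highest by median, with 1.29 and 1.24 in NPC, 1.31 and 1.27 in iPS cells in 2i, 1.37 and 1.26 in iPS cells, 1.33 and 1.27 in ES cells in 2i, and 1.45 and 1.46 in ES cells. Nanog with Klf4 followed, with 1.26 and 1.17 in NPC, 1.23 and 1.26 in iPS cells in 2i, 1.43 and 1.34 in iPS cells, 1.18 and 1.23 in ES cells in 2i, and 1.28 and 1.34 in ES cells. Both were above 1 in all 10 libraries. Nestin with the gene desert (0.578 to 0.756) and Nanog with Nestin (0.577 to 0.771) were lowest. By class, pairs of 2 pluripotency regions lay at 1.03 to 1.07 and pairs of a pluripotency with a neural region at 0.867 to 0.943.

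Without the 1000 highest primer pairs these differences nearly closed. The 20 region pairs then lay between 0.903 and 1.11, with medians of 0.929 to 1.05. Nestin with Olig was 1.00 to 1.04, Nanog with Klf4 had a median of 1.00, pairs of 2 pluripotency regions were 0.997 to 1.00, and pluripotency with neural regions were 0.994 to 1.00. Nestin with the gene desert was lowest by median, at 0.903 to 0.950. Primer orientation gave a further reading, since the contact of 2 regions is read once with the forward primers in one region and once with them in the other. Both readings fell on the same side of 1 in 10 of 20 region pairs with all primer pairs, and in 16 of 20 without the 1000. For Nestin with Olig, the median over libraries was 1.05 with Nestin forward and 1.45 with Olig forward, where the highest primer pair lies.

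The Sox2 and Nestin regions, far apart on chromosome 3, gave a same-chromosome comparison. With all primer pairs, Sox2 with Nestin had 0.638 and 0.725 in NPC, 0.719 and 0.682 in iPS cells in 2i, 0.476 and 0.606 in iPS cells, 0.782 and 0.694 in ES cells in 2i, and 0.566 and 0.507 in ES cells, against 0.577 to 1.46 for the interchromosomal region pairs, and it was the lowest of 21 in 7 of 10 libraries. Its expected count was set only by factors from interchromosomal pairs. With pairs of high count left out of both kinds, Sox2 with Nestin had 1.13 and 1.18 in NPC, 1.15 and 1.07 in iPS cells in 2i, 1.12 and 1.08 in iPS cells, 1.22 and 1.09 in ES cells in 2i, and 1.05 and 1.07 in ES cells. It was then the highest of 21 region pairs in 9 of 10 libraries and next to highest in the other. Counted by primer pairs with at least 1 count, Sox2 with Nestin was at 1.02 to 1.10 of expected, above all 20 interchromosomal region pairs, which were at 0.959 to 1.04, in 10 of 10 libraries.

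**Figure D3:**
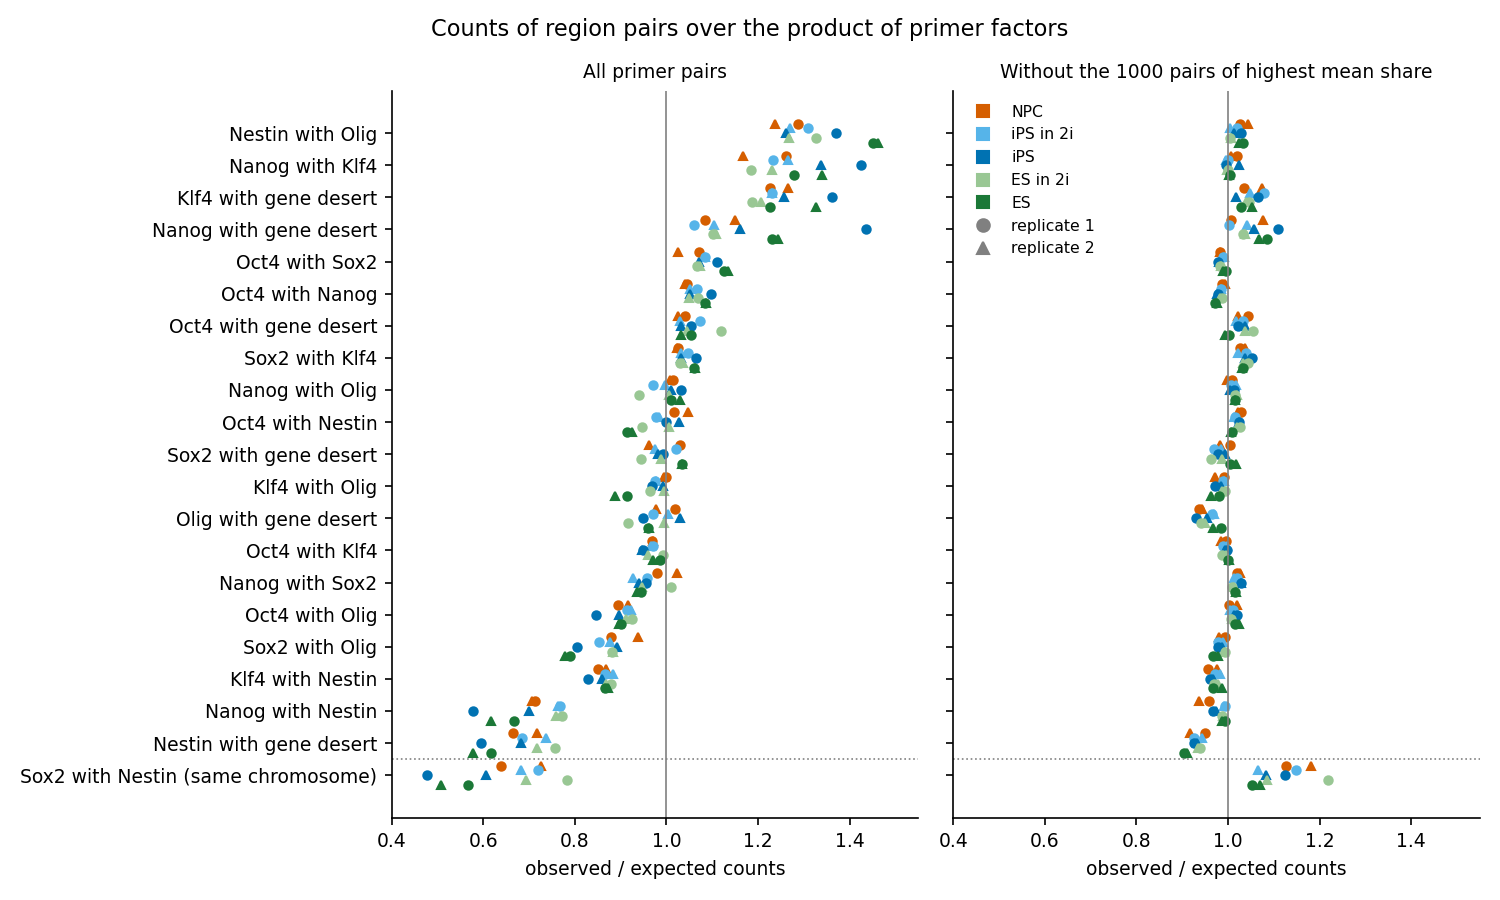
Observed over expected counts of each region pair in the 10 libraries, with all primer pairs and without the 1000 highest. The interchromosomal pairs span 0.577 to 1.46 with all primer pairs and 0.903 to 1.11 without the 1000, where Sox2 with Nestin, on one chromosome, lies at 1.05 to 1.22.

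At 100 kb, window pairs kept their order between libraries of the same and of different groups. Over 2504 window pairs with a mean of at least 50 counts, log2 observed over expected had an SD of 0.72, and 38 window pairs were above 2-fold and 102 below 2-fold in all libraries. As a description, Pearson's r between libraries across these window pairs, which share primers, was 0.847 to 0.959 for replicates (median 0.900) and 0.763 to 0.960 for libraries of different groups (median 0.891). Once the 1000 highest primer pairs were left out the SD was 0.22 over 2494 window pairs, r was 0.461 to 0.740 for replicates (median 0.561) and 0.351 to 0.726 otherwise (median 0.532), and no window pair was past 2-fold in all libraries.

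The comparison of NPC with serum ES cells asks how contacts differ between a neural progenitor and a pluripotent state. Klf4 with Olig rose by 0.15 ± 0.03 on the log2 scale (SE) in NPC, Oct4 with Nestin by 0.17 ± 0.04 and Sox2 with Olig by 0.21 ± 0.05, all of them a pluripotency with a neural region. Nestin with Olig fell by 0.21 ± 0.05 and Oct4 with Sox2 fell by 0.11 ± 0.03. Observed over expected averages about 1 within each region by construction, so a fall in a region pair goes with rises in others. The changes of region pairs here, and in the comparisons below, are therefore not independent of each other. Klf4 with Olig had 0.999 and 0.994 in NPC, against 0.914 and 0.887 in ES cells, and Sox2 with Olig had 0.879 and 0.939 in NPC, against 0.789 and 0.778 in ES cells. The groups did not overlap in either, but both were called from these same values. These 5 of 20 passed edgeR's quasi-likelihood test with Benjamini-Hochberg adjustment over 21 region pairs (adjusted p = 0.0132 to 0.0348), where 23.8% of all tested were called. With the 1000 highest primer pairs left out, 5 region pairs (23.8%) were again called, but of these Oct4 with Nestin alone was called before (log2 difference 0.02), the others being Oct4 with Nanog (0.03), Oct4 with the gene desert (0.05), Nanog with Nestin (-0.06) and Olig with the gene desert (-0.05). No region pair was called in this comparison without ES replicate 1, ES replicate 2 or NPC replicate 2, and 8 were called without either iPS library. With primer totals taken over all pairs, within-region pairs included, the median region pair was at -0.66 and all 3 rises turned negative, and Oct4 with Nestin also did with TMM scaling.

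Among window pairs, 5 rose and 6 fell in NPC, 0.175% and 0.209% of those tested and 0.384% together (edgeR, Benjamini-Hochberg), and 605 of 2734 had an unadjusted p under 0.05. DESeq2 called 184. The window chr17:34500001-34600000 of the Oct4 region with chr6:122100001-122200000 of the Nanog region, with no gene start in either, had the largest change. Its observed over expected was 0.391 and 0.464 in NPC, 0.703 and 0.793 in iPS cells in 2i, 0.585 and 0.367 in iPS cells, 0.657 and 0.592 in ES cells in 2i, and 2.79 and 2.15 in ES cells. Both serum ES libraries were above 2 and the other 8 were below 1. It fell by 2.54 ± 0.26 (log2, SE) in NPC relative to ES cells (edgeR, adjusted p = 0.00105). A single primer pair, chr6:122191697-122196746 with chr17:34579708-34580673, held 60.9% of its 2346 counts, with 741 and 529 in ES cells and 9 to 28 in the other libraries. With that primer pair left out, ES cells had 0.487 and 0.640, against 0.290 and 0.281 in NPC and 0.299 and 0.287 in iPS cells. Cells in 2i had 0.513 and 0.539 (ES) and 0.425 and 0.703 (iPS). Serum ES cells then overlapped both 2i groups but still lay above NPC and iPS cells.

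Window pairs that rose in NPC joined neural regions to each other and to Nanog and Klf4 windows. Olig windows were also among the falls, and the share of such pairs over all window pairs was not counted, so no pattern of regions is read from the rises. The largest rise was in chr3:88100001-88200000 of the Nestin region, where Cct3, a chaperonin subunit gene, starts, with chr16:90600001-90700000 of the Olig region. It had 1.73 and 2.04 in NPC, against 0.512 and 0.471 in ES cells, a log2 difference of 1.94 ± 0.23 (edgeR, adjusted p = 0.00200). In iPS cells it had 0.430 and 0.602. Its highest primer pair had 677 and 409 counts in NPC and 95 and 76 in ES cells, and without the 1000 pairs the log2 difference was 0.30 ± 0.19. The window of the promoters of Olig1 and Olig2, chr16:91200001-91300000, rose with chr3:88000001-88100000 of the Nestin region, where Rhbg, an ammonium transporter gene, starts. It had 1.05 and 1.22 in NPC, against 0.645 and 0.569 in ES cells, a log2 difference of 0.90 ± 0.17 (edgeR, adjusted p = 0.0479). No pair of the 1000 lay in it, its highest primer pair held 6.95% of its counts, and the difference without the 1000, after refitting, was 0.54 ± 0.14 and still called. The call was lost without ES replicate 1, ES replicate 2 or NPC replicate 2 (edgeR, adjusted p = 0.167, 0.468 and 0.267, and 0.00131 to 1.00 over all alternatives).

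The other rises were in the window of Necap1 in the Nanog region with 2 windows of the Olig region and in a Klf4 window with the window of Etv3 in the Nestin region. A single primer pair held 40.2% of the counts of the window pair of Etv3. Without that primer pair NPC had 0.266 and 0.393, against 0.291 and 0.256 in ES cells, so the groups overlapped. The Necap1 window with chr16:90900001-91000000 was not called without the 1000 (log2 difference -0.10 ± 0.14). The Necap1 window, chr6:122800001-122900000, had 1.91 and 2.02 in NPC with chr16:91000001-91100000, against 1.01 and 0.881 in ES cells. This window pair also had 1.62 and 1.74 in iPS cells, 2.17 and 1.84 in iPS cells in 2i and 1.93 and 2.00 in ES cells in 2i. Serum ES cells were thus the low group, and the high values were not particular to NPC. It holds 2 of the 1000 highest primer pairs, and without them it had 0.865 and 0.931 in NPC, against 0.850 and 0.740 in ES cells, and was not called (log2 difference 0.17 ± 0.14, edgeR, adjusted p = 0.566). The falls included chr17:35700001-35800000 of the Oct4 region with chr4:55800001-55900000 of the Klf4 region, at 0.742 and 0.719 in NPC, against 1.37 and 1.51 in ES cells, and chr17:36400001-36500000 of Oct4 with chr16:91600001-91700000, where Son starts, which fell by 1.27 ± 0.21. A single primer pair, not among the 1000, held 37.7% of the counts of the window pair of Son. It had 922 and 683 counts in ES cells and 1 to 14 in the other libraries. With that primer pair left out, the window pair of Son had 0.769 and 0.606 in NPC, against 0.632 and 0.597 in ES cells, so the groups overlapped. The Klf4 window pair without its leading primer pair had 0.736 and 0.687 in NPC, against 1.08 and 0.992 in ES cells. With all primer pairs, NPC and ES libraries did not overlap in any of the 11. The 11 were called from these same values, so this is no further support, and the share over all window pairs was not counted. A primer pair of the 1000 lay in 7 of the 11, against 26.4% of all member window pairs, and 4 of the 11 were called without the 1000, where 1.64% of all tested were. The number called was 1 without ES replicate 1 or 2, 2 without NPC replicate 2, 5 without either library of ES cells in 2i, 47 without either iPS library and 158 without NPC replicate 1. With library totals scaled by TMM it was 42 higher and 66 lower, against 5 higher and 6 lower here.

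The comparison of iPS cells with NPC asks what reprogramming changed. Nestin with Olig at the window of Cct3 fell by 1.84 ± 0.24 on the log2 scale in iPS cells, with 0.430 and 0.602 in iPS cells, against 1.73 and 2.04 in NPC. That was 1 window pair of 2734 (edgeR, Benjamini-Hochberg, adjusted p = 0.0102), where 0.0349% of all 2865 tested, Sox2 with Nestin included, were called, beside 276 with an unadjusted p under 0.05 and 22 called by DESeq2. It was not called without iPS replicate 1, NPC replicate 2 or the 1000 highest primer pairs, where 0.0698% of all tested were called, and 21 were called without iPS replicate 2. No region pair was called by edgeR (0% of 21), 2 had an unadjusted p under 0.05 and DESeq2 called 1; without iPS replicate 2 edgeR called 6.

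The comparison of iPS cells with serum ES cells asks how far the reprogrammed cells resemble ES cells. It shares the ES libraries with the NPC comparison, as does that of ES cells in 2i. Klf4 with Olig rose by 0.12 ± 0.03 in iPS cells and Oct4 with Nestin by 0.14 ± 0.04 (edgeR, adjusted p = 0.0464 for both), 2 of 20 region pairs, where 9.52% of all tested were called. Klf4 with Olig had 0.969 and 0.992 in iPS cells, against 0.914 and 0.887 in ES cells, and Oct4 with Nestin had 0.999 and 1.03 in iPS cells, against 0.914 and 0.924 in ES cells. Both region pairs were called from these same values. The groups did not overlap, but neither region pair was called without ES replicate 1, ES replicate 2, either NPC library, either library of iPS cells in 2i, or the 1000 highest primer pairs, and 4 were called without iPS replicate 1 and 1 without iPS replicate 2. With primer totals over all pairs the median region pair was at -0.53 and both rises turned negative, and Klf4 with Olig also did with TMM scaling. Among window pairs 2 fell, 0.0698% of those tested, beside 292 with an unadjusted p under 0.05 and 19 called by DESeq2. One was the Oct4 with Nanog window pair above, which fell by 2.43 ± 0.27 (edgeR, adjusted p = 0.00185). The other was chr17:34500001-34600000 with chr4:55300001-55400000, where the DNA repair gene Rad23b starts, with 0.597 and 0.752 in iPS cells, against 1.38 and 1.34 in ES cells, and it fell by 1.00 ± 0.14 (edgeR, adjusted p = 0.0163). Only the first was called without the 1000, where 0.14% of all tested were. The number called was 0 without ES replicate 1, 1 without ES replicate 2 or iPS replicate 1, and 5 without iPS replicate 2.

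The comparison of ES cells in 2i with ES cells in serum asks what the medium changed. Nestin with the gene desert rose by 0.30 ± 0.07, Nanog with Nestin by 0.25 ± 0.08, Sox2 with Olig by 0.17 ± 0.05 and Klf4 with Olig by 0.12 ± 0.03, and Nestin with Olig fell by 0.17 ± 0.05. As above, these changes are not independent of each other. Nestin with the gene desert had 0.756 and 0.716 in ES cells in 2i, against 0.616 and 0.578 in serum, and Nanog with Nestin had 0.771 and 0.758 in 2i, against 0.667 and 0.617 in serum. The groups did not overlap, but both region pairs were called from these same values. These 5 of 20 passed edgeR's test (adjusted p = 0.0330 to 0.0435), where 28.6% of all tested were called. With the 1000 left out 1 was called (4.76%), Oct4 with the gene desert (log2 difference 0.07), and no region pair was called without any 1 library of ES cells in 2i, of ES cells in serum or of iPS cells in 2i. With primer totals over all pairs the median region pair was at -0.70 and all 4 rises turned negative.

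At 100 kb, 8 window pairs rose and 7 fell in 2i, where 0.314% of all tested were called higher, 0.244% lower and 0.558% in all, 610 with an unadjusted p under 0.05, and 210 called by DESeq2. The Oct4 with Nanog window pair above fell by 2.00 ± 0.26 (edgeR, adjusted p = 0.0137). The window of Necap1 with chr16:91000001-91100000 of the Olig region rose, at 1.93 and 2.00 in 2i, against 1.01 and 0.881 in serum (edgeR, adjusted p = 0.0137), and was not called without the 1000 (log2 difference 0.44 ± 0.14, adjusted p = 0.120). As given above, NPC and both groups of iPS cells also lay above serum ES cells there. An Oct4 window that holds Ppp1r10, chr17:36000001-36100000, rose with the gene desert window chr5:133300001-133400000, at 1.08 and 0.940 in 2i, against 0.567 and 0.504 in serum, also without the 1000 (log2 difference 0.61 ± 0.15). Of the 15, 8 hold a pair of the 1000 and 2 were called without them, where 0.628% of all tested were. None was called when any 1 library of ES cells in 2i or in serum was left out, 2 without either library of iPS cells in 2i, and 92 to 126 without a library of NPC or of iPS cells in serum. With TMM scaling 2 were higher and 11 lower.

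Between iPS cells in 2i and in serum, no region pair (0%) and no window pair (0%) was called by edgeR, with 3 region pairs and 256 window pairs at an unadjusted p under 0.05. DESeq2 called 3 region pairs and 11 window pairs, and without iPS replicate 2 edgeR called 5 and 57. Between iPS cells in 2i and ES cells in 2i, edgeR and DESeq2 called none of 20 region pairs and none of 2734 window pairs (0% each), with 0 and 35 at an unadjusted p under 0.05. The largest difference of a region pair there was 0.05 on the log2 scale. The response to 2i differed between iPS and ES cells in 1 window pair, 0.0349% of those tested, the Oct4 with Nanog pair, by 2.72 ± 0.39 on the log2 scale (edgeR, adjusted p = 0.0284), beside 207 with an unadjusted p under 0.05 and 5 called by DESeq2. As given above, 60.9% of this window pair's counts lay in a single primer pair that was high in serum ES cells alone. No region pair was called for the difference in the response to 2i (0%), with 2 at an unadjusted p under 0.05 and 0 called by DESeq2.

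**Figure D4:**
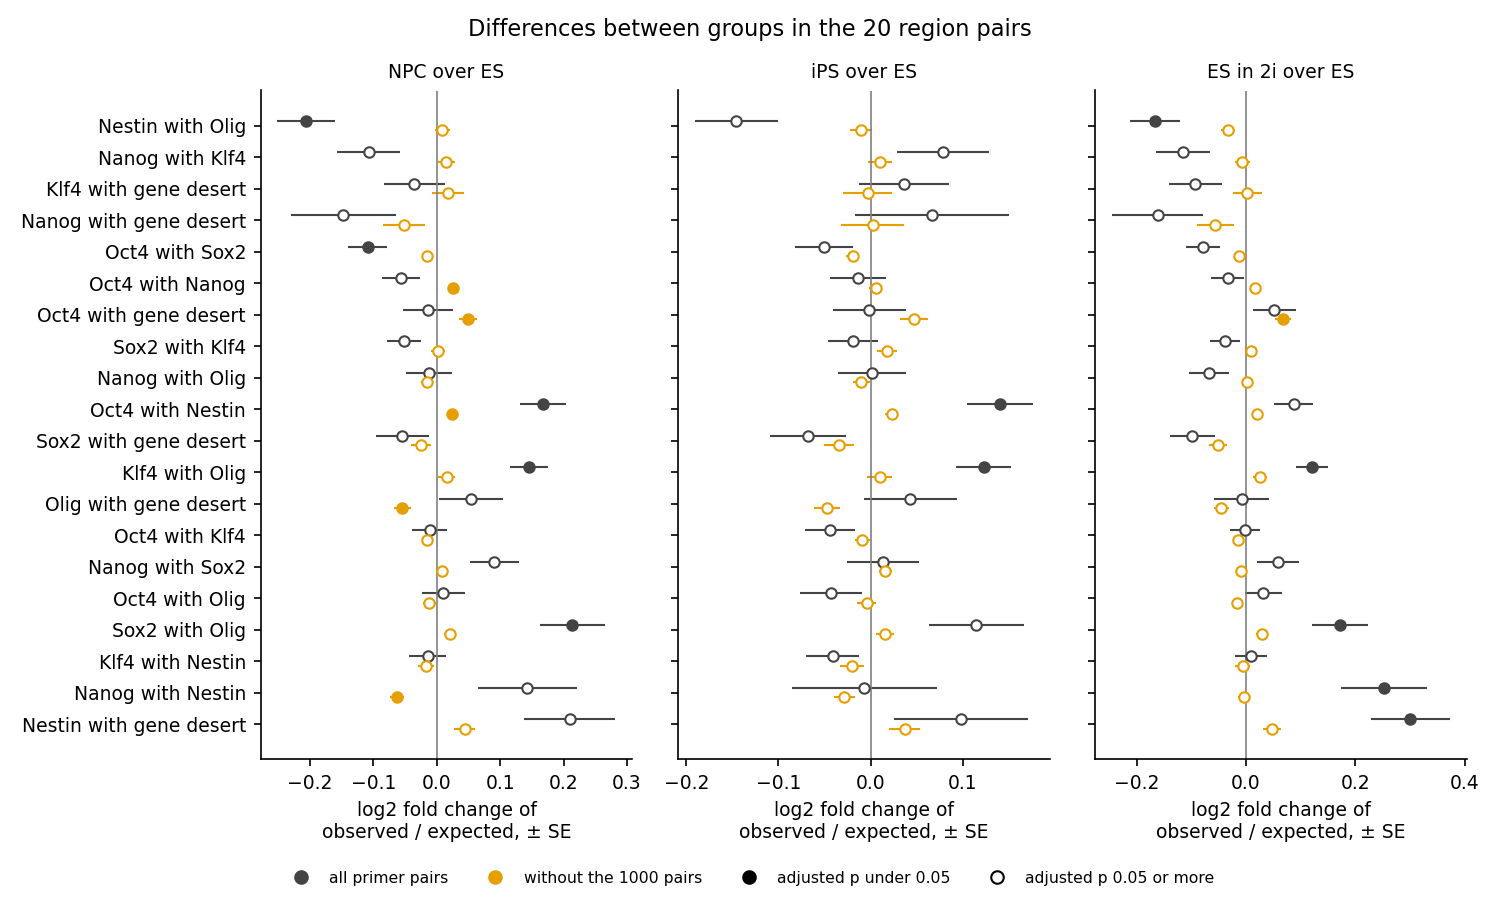
Log2 fold change of observed over expected (x axis, ± SE) of the 20 interchromosomal region pairs for NPC, iPS cells and ES cells in 2i over serum ES cells, which all share the ES libraries, with all primer pairs in grey and without the 1000 highest in orange. Filled points passed the adjusted p of 0.05, which were 5, 2 and 5 region pairs with all primer pairs, and without the 1000 every point lies within 0.08 of 0.

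The windows that hold the promoters of the genes that name the regions gave 14 interchromosomal pairs. These were chr17:35600001-35700000 for Pou5f1, chr6:122600001-122700000 for the Nanog locus, chr3:34500001-34600000 for Sox2, chr4:55500001-55600000 for Klf4, chr3:87700001-87800000 for Nes and chr16:91200001-91300000 for Olig1 and Olig2. The Nanog locus carries the symbol Nanogpd in the gene table used. Sox2 with Klf4 was above 1 in all 10 libraries, with 1.20 and 1.24 in NPC, 1.34 and 1.31 in iPS cells in 2i, 1.48 and 1.54 in iPS cells, 1.32 and 1.30 in ES cells in 2i, and 1.17 and 1.17 in ES cells. It was also above 1 in all 10 without the 1000 highest primer pairs, at 1.06 to 1.28. Klf4 RNA was at 10.4 and 9.60 CPM in NPC, against 86.3 and 96.8 CPM in ES cells, and this promoter pair was not called in any comparison.

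The Nanog locus with Nes was at 1.02 to 1.48, above 1 in 10 of 10 libraries, and at 0.935 to 1.49 without the 1000, above 1 in 9 of 10. The Nanog locus with Klf4 was at 0.945 to 1.82 with all primer pairs and at or below 0.994 without the 1000. Nes with Olig1 and Olig2 was at 0.935 to 1.12 with all primer pairs and 1.08 to 1.49 without the 1000, with 1.11 and 1.28 in NPC and 1.27 and 1.49 in ES cells. Pou5f1, Sox2 and Klf4 with Olig1 and Olig2 were below 1 in all 10 libraries with all primer pairs, and each was on both sides of 1 without the 1000.

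Sox2 with Olig1 and Olig2 rose in ES cells in 2i, at 0.976 and 0.913, against 0.615 and 0.514 in serum ES cells, by 0.74 ± 0.14 on the log2 scale (edgeR, Benjamini-Hochberg over all window pairs, adjusted p = 0.0449). That is 1 of 14 promoter pairs. The difference was 0.40 ± 0.12 without the 1000 and not called, and the call was lost when any 1 library of ES cells in 2i, of ES cells or of iPS cells in 2i was left out. In the other 6 comparisons edgeR called 0 of 14 promoter pairs, with 0 to 2 at an unadjusted p under 0.05. No promoter pair of Olig1 and Olig2 was called between NPC and ES cells, which differed widely in the RNA of both genes. With all primer pairs, Sox2 with Olig1 and Olig2 had 0.792 and 0.850 in NPC. It had 0.728 and 0.801 in iPS cells and 0.869 and 0.878 in iPS cells in 2i, so serum ES cells were below every other group.

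**Figure D5:**
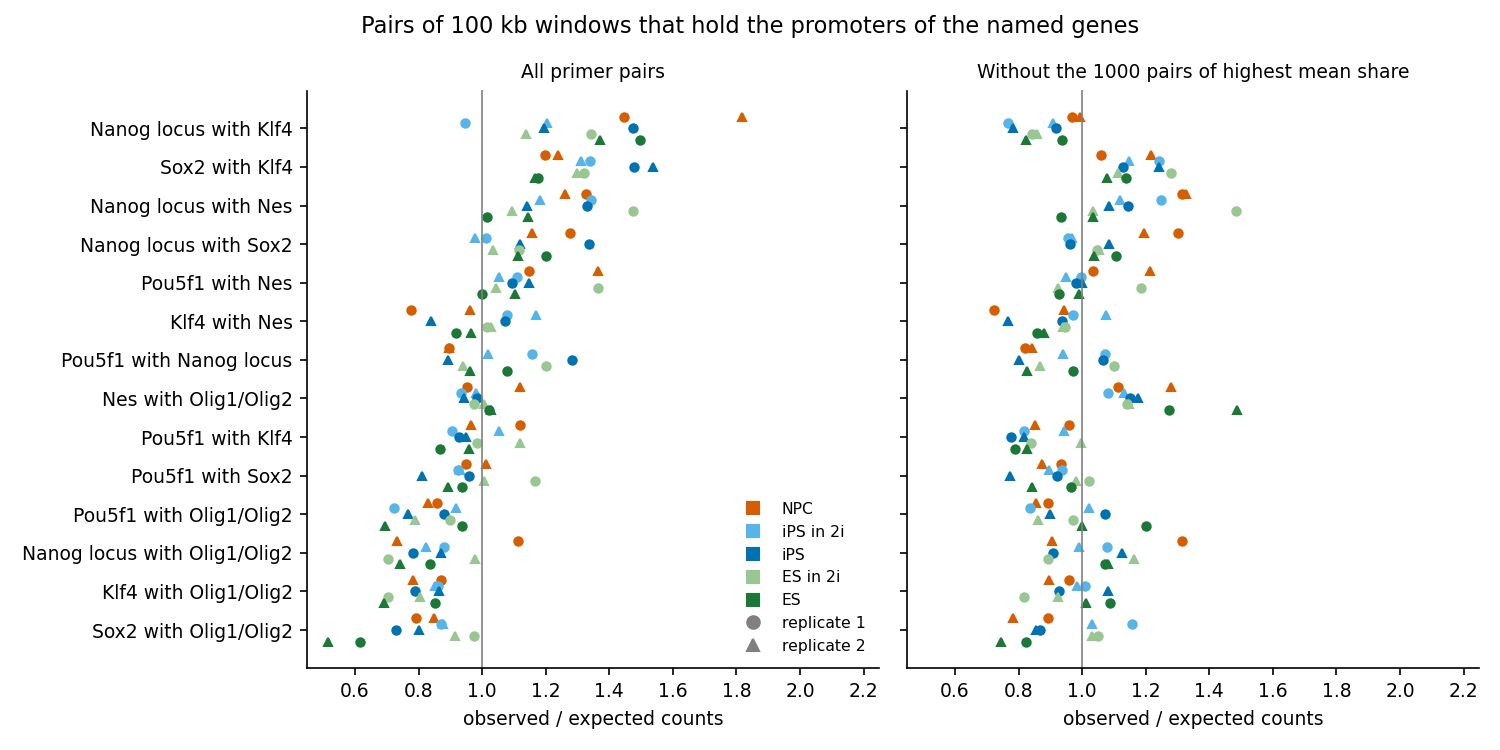
Observed over expected counts of the 14 promoter window pairs in the 10 libraries, by group, with all primer pairs on the left and without the 1000 highest on the right. Sox2 with Klf4 lies at 1.17 to 1.54 and Sox2 with Olig1 and Olig2 at 0.514 to 0.976 on the left.

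Single primer pairs that were high in 1 group were counted by a rule chosen after the values were seen, with no test. A pair qualified at 20 or more CPM, here of interchromosomal counts, in both libraries of a group and over 4-fold any other library. In NPC 2 of 2116 pairs at that level qualified, in iPS cells in 2i 0 of 1630, in iPS cells 1 of 1918, in ES cells in 2i 0 of 1655 and in ES cells 29 of 2728 (1.06%). The serum ES libraries were also the deepest. The highest of the 29 joined chr4:55112897-55114855 of the Klf4 region with chr3:34672095-34676622 of the Sox2 region and had 2036 and 1730 counts in ES cells, against 0 to 16 in the other 8 libraries. The leading primer pair of the Oct4 with Nanog window pair above was another. In NPC, chr6:122666500-122670401, near the Nanog locus, with chr3:87759491-87793437, which overlaps Nes and the proteoglycan gene Bcan, had 105 and 53 counts, against 1 to 13 elsewhere. In iPS cells, chr3:34377526-34381021 of the Sox2 region with chr16:90869230-90869379 of the Olig region had 242 and 212 CPM of interchromosomal counts, against 17.0 to 41.0 elsewhere.

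Gene content of the windows was set beside the contacts as a last description. Pairs of windows with more than 1 gene start each had 1.12 to 1.26 of the expected counts, pairs of windows with 0 gene starts 0.997 to 1.04, and mixed pairs 0.911 to 0.961. With the 1000 highest primer pairs left out the ranges were 0.992 to 1.01, 1.00 to 1.01 and 0.992 to 0.998. These are ratios of summed counts. With all primer pairs, the median window pair was below expected in every library for each kind. Its log2 observed over expected was -0.363 to -0.125 for gene-rich pairs, -0.249 to -0.087 for pairs with 0 gene starts and -0.218 to -0.094 for mixed pairs. Across window pairs, which share primers, Pearson's r between the product of gene numbers and log2 observed over expected was -0.04 with all primer pairs and 0.02 without the 1000.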

How the data were processed

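The authors deposited a table of raw 5C counts per primer pair for each of 10 libraries, and raw RNA-seq counts per gene. Per the submitters' processing notes the build was mm9 and the tools included Bowtie, TopHat2 2.1.0 and HTSeq, and how each was used is not given in the sources used here. Members, windows and lists were chosen with earlier results of these data known. Forward-reverse counts on different chromosomes were summed per region pair and 100 kb window pair. Expected counts, the product of a forward and a reverse primer factor, were fitted to interchromosomal primer totals in each library and entered edgeR 4.0.16 (R 4.3.3) as an offset. Its quasi-likelihood test ran on counts of all 10 libraries with group as the only term and 5 residual degrees of freedom, over 21 region pairs and 2865 window pairs with a mean count of at least 10, Sox2 with Nestin included, at a Benjamini-Hochberg adjusted p of 0.05. On simulated data, edgeR recovered 84% of 2-fold rises and 74% of 2-fold falls among 2865 window pairs for NPC against ES. Those counts were drawn independently for each window pair with expected counts held fixed. The simulation thus left out shared primers and the fitting of expected counts, and the recovery in the real data may differ. Genes are named by their start in a window. Named window pairs were, per comparison, at most 5 higher and 5 lower of smallest adjusted p among called pairs whose groups do not overlap, beside all promoter pairs; 1 such window pair is not reported here. DESeq2 1.42.0, other scalings, filters, windows and left-out libraries were alternatives. The 1000 primer pairs left out were those of highest mean share of interchromosomal counts, an alternative chosen after seeing the data. The gene models came with the deposited expression table.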

Additional observations from a re-analysis of the deposited data

Results flagged for a closer look

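The response to 2i differed between iPS and ES cells at the window pair chr17:34500001-34600000 with chr6:122100001-122200000, by 2.724 on the log2 scale in the test of the difference itself (edgeR, adjusted p = 0.0284). Over the alternatives its adjusted p ran between 8.59e-07 and 1.00, and the call was lost without either ES library, either library of ES or iPS cells in 2i, or iPS replicate 2. A single primer pair held 60.9% of the counts of this window pair, with 741 and 529 in serum ES cells and 9 to 28 in the other libraries. With that primer pair left out, observed over expected was 0.487 and 0.640 in ES cells and 0.513 and 0.539 in ES cells in 2i. It was then 0.299 and 0.287 in iPS cells and 0.425 and 0.703 in iPS cells in 2i. Primer pairs of the same orientation on different chromosomes, which are outside the forward-reverse measurement, held counts in every library, between 0.03508% of all counts in iPS replicate 1 and 0.5408% in iPS in 2i replicate 2, with no control library to set them against.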

How the results depend on the processing

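Counts of calls moved with single libraries and with the primer pairs counted. Leaving out each library in turn, window pairs called numbered 1 to 158 for NPC against ES, 0 to 21 for iPS against NPC, 0 to 5 for iPS against ES, 0 to 126 for ES in 2i against ES, 0 to 57 for iPS in 2i against iPS, 0 to 0 for iPS in 2i against ES in 2i, 0 to 1 for the 2i response of iPS against ES. Region pairs called numbered 0 to 8 for NPC against ES, 0 to 6 for iPS against NPC, 0 to 4 for iPS against ES, 0 to 6 for ES in 2i against ES, 0 to 5 for iPS in 2i against iPS, 0 to 0 for iPS in 2i against ES in 2i, 0 to 0 for the 2i response of iPS against ES. The share was 10.1% to 14.7% in NPC, 7.57% to 16.3% in iPS in 2i, 8.89% to 15.4% in iPS, 7.61% to 15.1% in ES in 2i, 16.7% to 18.2% in ES. Counting detected primer pairs, window pairs called numbered 0 for NPC against ES, iPS against NPC, iPS against ES, ES in 2i against ES, the 2i response of iPS against ES, and region pairs called numbered 0 for NPC against ES, iPS against ES, ES in 2i against ES, and the interchromosomal share was 71.1% in NPC, 71.9% in iPS in 2i, 69.8% in iPS, 72.2% in ES in 2i, 74.7% in ES. With primer totals over all pairs, window pairs called numbered 2 for NPC against ES and 0 for iPS against NPC, iPS against ES, ES in 2i against ES, the 2i response of iPS against ES, and region pairs called numbered 0 for NPC against ES, iPS against ES, ES in 2i against ES. With TMM scaling, window pairs called numbered 108 for NPC against ES and 0 for iPS against ES, the 2i response of iPS against ES, and region pairs called numbered 2 for iPS against NPC and 0 for iPS against ES and 1 for ES in 2i against ES. Without the 1% of primer pairs highest in observed over expected, window pairs called numbered 7 for NPC against ES and 2 for iPS against NPC and 4 for ES in 2i against ES, and region pairs called numbered 2 for NPC against ES and 0 for iPS against ES and 1 for ES in 2i against ES, and the interchromosomal share was 8.48% in NPC, 11.2% in ES. Without the 5% of primers highest in interchromosomal share, window pairs called numbered 46 for NPC against ES and 0 for the 2i response of iPS against ES, and region pairs called numbered 0 for NPC against ES, iPS against ES, and the interchromosomal share was 13.8% in ES. Without the 1000 highest primer pairs, window pairs called numbered 43 for NPC against ES and 2 for iPS against NPC and 4 for iPS against ES, and region pairs called numbered 0 for iPS against ES and 1 for ES in 2i against ES, and the interchromosomal share was 12.1% in ES. Without the 3 libraries of low interchromosomal share, window pairs called numbered 20 for NPC against ES and 0 for iPS against NPC, ES in 2i against ES, the 2i response of iPS against ES and 1 for iPS against ES, and region pairs called numbered 0 for iPS against ES, ES in 2i against ES. In 50 kb windows, window pairs called numbered 85 for NPC against ES and 7 for iPS against ES and 23 for ES in 2i against ES and 0 for the 2i response of iPS against ES. In 200 kb windows, window pairs called numbered 3 for NPC against ES and 0 for iPS against NPC, the 2i response of iPS against ES and 28 for ES in 2i against ES. With a mean count of at least 50, window pairs called numbered 54 for ES in 2i against ES. With DESeq2, window pairs called numbered 184 for NPC against ES and 22 for iPS against NPC and 19 for iPS against ES and 210 for ES in 2i against ES and 11 for iPS in 2i against iPS and 5 for the 2i response of iPS against ES, and region pairs called numbered 1 for iPS against NPC and 3 for iPS in 2i against iPS.

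Some directions reversed. Window pairs are given here by region and window start in mm9. Counting detected primer pairs, the log2 difference was for NPC against ES Nestin 88100001 with Olig 90600001 -0.10, Nanog 122800001 with Olig 91000001 -0.15, Nanog 122800001 with Olig 90900001 -0.0058, Nestin with Olig 0.016, Sox2 with Olig -0.0081, and for iPS against NPC Nestin 88100001 with Olig 90600001 0.13, and for iPS against ES Oct4 34500001 with Klf4 55300001 0.035, Klf4 with Olig -0.0057, Oct4 with Nestin -0.0072, and for ES in 2i against ES Nanog 122800001 with Olig 91000001 -0.055, Oct4 36000001 with gene desert 133300001 -0.015, Oct4 35900001 with Olig 90700001 0.031, Oct4 35800001 with Klf4 55300001 0.016, Klf4 with Olig -0.00066, Nestin with Olig 0.0024, Nestin with gene desert -0.0034. With primer totals over all pairs, the log2 difference was for NPC against ES Nestin 88000001 with Olig 91200001 -0.74, Klf4 with Olig -0.69, Oct4 with Nestin -0.21, Sox2 with Olig -0.63, and for ES in 2i against ES Oct4 36000001 with gene desert 133300001 -0.46, Nanog 122700001 with Nestin 88300001 -0.11, the promoters of Sox2 with Olig1/Olig2 -0.15, Klf4 with Olig -0.49, Nanog with Nestin -0.71, Nestin with gene desert -0.83, Sox2 with Olig -0.43, and for iPS against ES Klf4 with Olig -0.34, Oct4 with Nestin -0.55. With TMM scaling, the log2 difference was for NPC against ES Oct4 with Nestin -0.028, and for iPS against ES Klf4 with Olig -0.016. Without the 1% of primer pairs highest in observed over expected, the log2 difference was for NPC against ES Nanog 122800001 with Olig 90900001 -0.069, Oct4 36400001 with Olig 91600001 0.20, Nestin with Olig 0.013, and for iPS against ES Oct4 34500001 with Klf4 55300001 0.035, and for ES in 2i against ES Nanog with Nestin -0.017. Without the 1000 highest primer pairs, the log2 difference was for NPC against ES Nanog 122800001 with Olig 90900001 -0.10, Nestin with Olig 0.0090, and for ES in 2i against ES Oct4 35900001 with Olig 90700001 0.049, Nanog with Nestin -0.0032. With primer totals over all pairs the median window pair was at -0.43 for NPC against ES, -0.46 for iPS against ES and -0.52 for ES in 2i against ES. The cause of these shifts was not tested.

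Replicate numbers were not taken to pair the libraries, since the labels name no shared day or source and deviations of same-numbered libraries from their group means correlated at -0.50 to 0.21 between groups, although replicate 1 had the lower interchromosomal share in 4 of 5 groups. With the replicate number as a block, window pairs called numbered 6 for NPC against ES and 2 for ES in 2i against ES, where 11 and 15 were called without it, and region pairs 3 for iPS against ES and 4 for ES in 2i against ES. Differences of single primer pairs were not tested.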
